A study of Mus musculus with 189 samples.

Results

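The genes described here make prostaglandins and leukotrienes from arachidonic acid or bind prostaglandin E2 at the cell surface. The 10 members are Pla2g4a, Alox5, Alox5ap, Ltc4s, Lta4h, Ptgs1, Ptgs2, Hpgds, Ptger3 and Ptger4. They were chosen by symbol and not by a rule on their measured levels, though earlier results of these data were known. All 10 were among the 46078 gene rows of the count table, of which 22746 had a read in an analysed cell, and 9 of the 10 had reads. RNA was sequenced from 189 single peritoneal cells, taken from 4 mice that were female and of the C57BL/6 strain. The 94 mature mast cells were live and lineage-negative, had c-Kit and FcεRI (which binds IgE with high affinity) on the surface, and were sorted for high side scatter with little integrin β7. The 95 cells of the other group were basophil-mast cell progenitors (BMCPs), cells named as precursors of both lineages, sorted by the same lineage, c-Kit and FcεRI gates but with high integrin β7 and low side scatter. No treatment, transgene or age is given in the labels used here, and no label ties a cell to a mouse, so each group is treated as 1 sample.

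Mast cells are a main source of these lipid mediators. Cytosolic phospholipase A2 frees arachidonic acid from membranes. The 5-lipoxygenase arm turns it into leukotriene A4, which becomes leukotriene B4, an attractant of leukocytes, or the cysteinyl leukotriene C4, which contracts smooth muscle. The cyclooxygenase arm makes prostaglandin H2, which hematopoietic prostaglandin D synthase turns into prostaglandin D2, the main prostanoid of activated mast cells. Basophils are known mostly for leukotriene C4. Prostaglandin E2 made by other cells acts back on mast cells through its receptors EP3 and EP4.

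The stretches of 250 bases before the transcription start of 3 members are shown because these genes mark the ends of the range: Alox5 and Hpgds were the 2 members found in most cells, and Ptgs2 had no read. They were taken from RefSeq for GRCm38.p6 (9 of the 10 members matched the promoter table) and are written 5′ to 3′ on the strand of the gene. The RefSeq start of Hpgds lies inside the gene as GENCODE places it, so 178 bases of its window fall within the positions given for Hpgds below, whereas the Alox5 and Ptgs2 windows lie wholly outside. Capitals mark any match, on either strand, to GATAA, which is bound by GATA-family factors, to GGGCGG, which is bound by Sp-family factors, or to TATAAA, an element found near some start sites.
Alox5, minus strand, chr6:116461179-116461428: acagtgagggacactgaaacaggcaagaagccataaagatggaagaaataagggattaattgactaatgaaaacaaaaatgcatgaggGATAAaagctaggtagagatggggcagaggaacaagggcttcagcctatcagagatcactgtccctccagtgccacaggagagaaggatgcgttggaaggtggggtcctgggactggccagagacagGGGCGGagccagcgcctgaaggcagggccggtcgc
Hpgds, minus strand, chr6:65144731-65144980: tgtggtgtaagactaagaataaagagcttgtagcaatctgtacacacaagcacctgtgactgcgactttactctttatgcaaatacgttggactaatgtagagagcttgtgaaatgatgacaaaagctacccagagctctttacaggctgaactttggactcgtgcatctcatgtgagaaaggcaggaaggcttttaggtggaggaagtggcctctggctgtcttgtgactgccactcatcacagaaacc
Ptgs2, plus strand, chr1:150099781-150100030: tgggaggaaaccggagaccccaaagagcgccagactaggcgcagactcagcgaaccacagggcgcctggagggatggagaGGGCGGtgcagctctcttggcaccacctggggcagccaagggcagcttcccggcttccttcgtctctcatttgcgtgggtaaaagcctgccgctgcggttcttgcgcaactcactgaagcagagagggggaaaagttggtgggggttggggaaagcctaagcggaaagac
The Alox5 window held 1 GATAA and 1 GGGCGG, the Ptgs2 window held 1 GGGCGG, and the Hpgds window held none of the 3 motifs. Of 32851 promoter windows of this length, 22.6% held GATAA, 32.7% held GGGCGG and 12.4% held TATAAA, so such matches are common and describe the windows only.

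Reads on gene rows ranged from 561600 to 2152221 per mature mast cell (median 1255267) and from 344022 to 2091665 per analysed BMCP (median 1247890). The median number of genes with a read was 4134.5 per mature mast cell and 3750 per analysed BMCP. The part of that difference in the shares of cells given below was not tested. BMCPs 6 and 93, with 3978 and 36972 gene reads, fell under the minimum of 100000 and were left out, so 94 mature mast cells and 93 BMCPs were analysed. The 10 mast cell markers (Kit, Fcer1a, Ms4a2, Cpa3, Cma1, Tpsb2, Hdc, Mcpt4, Srgn and Mrgprb2) all had reads in both groups, and their summed level was 140120 to 367034 CPM (counts-per-million: reads of a gene scaled to the gene reads of the cell) in mature mast cells. In BMCPs it was 27376 to 340826 CPM once BMCPs 46 and 80 were set aside. Those 2 wells went against their label: they carried B cell markers (Cd74 at 49765 and 43636 CPM) and almost no Kit (1.47 and 3.51 CPM), and their effect on each member they touch is given below. Of the 5 basophil markers Cebpa was at 0 in both groups, and the summed level of the list had a median of 934 CPM (4.33 to 30540 per cell) on the mature side and of 1430 CPM (3.64 to 37348) among BMCPs. That sum joins markers of opposite direction. Over all reads of mature mast cells and of BMCPs, Mcpt8 was at 30.2 and 3294 CPM and Itga2 at 3.83 and 40.5 CPM. Prss34 (2899 and 1580 CPM) and Cd200r3 (557 and 345 CPM) were higher in mature mast cells. The part of these other markers in the results was not tested, apart from the values without the 2 wells. The 5 T cell and the 5 natural killer cell markers were all at 0 in mature mast cells, but among BMCPs Lck stood at 764 CPM in number 44 and Prf1 at 346 CPM in number 61. The B cell marker Cd79b was held by 6 mature mast cells, at up to 1107 CPM. No cell apart from BMCPs 46 and 80 had 50 reads or more of at least 2 markers of 1 of the B cell, T cell, natural killer cell, macrophage, eosinophil and neutrophil lists.

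A cell is said below to hold an RNA when it reached 100 CPM, because a few reads of a gene turned up in cells that otherwise lacked it. Gzmb, a protease gene of the BMCPs, was held by 0 of 94 mature mast cells, which allows a share of up to 3.19%, yet 89 of them had at least 1 read of it and its pooled level was 3.39 CPM. Pooled levels are the reads of a gene summed over a group and scaled in the same way, and ratios are log2 of mature mast cells over BMCPs with 1 CPM added to each. With 1 sample per group no test between groups exists, and the 95% intervals in parentheses (exact Poisson for pooled levels, exact Clopper-Pearson for shares of cells) cover counting error only. Where a count is 0, the upper limit given is instead the value of 3 cells or 3 reads. PCR copies were counted as separate reads, so the intervals of the pooled levels are too narrow. The table's columns run in 2 blocks that each hold cells of both groups, and values within blocks are given beside the pooled ratios.

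Few of these genes differed much between the groups. The members' median log2 ratio was -0.09, against -0.25 for all 10556 genes that reached 5 CPM in a group. Of the 9 members above that minimum, 2 were at least 2-fold higher in mature mast cells, Ltc4s and Ptgs1, and 0 were at least 2-fold higher in BMCPs. Across all genes tested, 9.90% were at least 2-fold higher in mature mast cells and 19.2% at least 2-fold higher in BMCPs, so 2 of 9 is a small count to read against that background. The scale matters for direction: 10 granule genes held 285050 CPM of the mature pool and 176478 CPM of the BMCP pool, and the median cell had 939 gene reads per read of the ERCC spike-in RNA in mature mast cells and 562 in BMCPs. Scaling to ERCC reads moved the median log2 ratio of all genes to 0.67 (0.47 without BMCP 55, which was rich in ERCC reads), and TMM scaling moved it to 0.00. Each member is therefore also placed relative to the median of all genes. These are pooled single cells, and RNA content per cell was not measured apart from the ERCC reads.

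**Figure D1:**
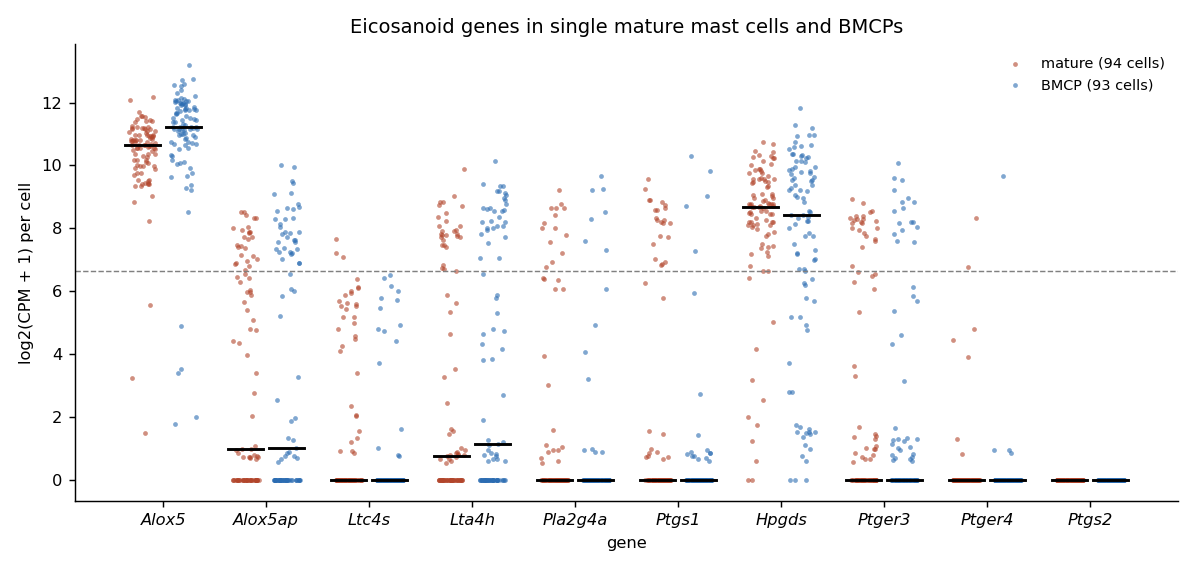
Level of each of the 10 genes in every analysed cell, as log2(CPM + 1) on the vertical axis, with mature mast cells in red and BMCPs in blue; each point is a cell, the black bar is the group median and the dashed line marks 100 CPM. Alox5 and Hpgds have medians above the line in both groups, Ptgs2 is at 0 in all 187 cells, and the other genes split into cells above the line and cells at or near 0.

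Pla2g4a (ENSMUSG00000056220, GRCm38 chromosome 1, 149829618 to 149961290, minus strand) encodes the calcium-dependent phospholipase that releases arachidonic acid. It was read in few cells. Its level ran from 0 to 593 CPM in mature mast cells and from 0 to 809 CPM in BMCPs, with a median of 0 in both. The RNA was held by 14 of 94 mature mast cells (14.9%, 8.39 to 23.7) and 7 of 93 BMCPs (7.53%, 3.08 to 14.9), and the intervals overlap. The pooled levels were 46.2 CPM (45.02 to 47.5) and 33.9 CPM (32.8 to 34.9), a log2 ratio of 0.44, or 0.69 above the median of all genes. BMCP 95 alone held 34.9% of the BMCP reads, and the ratio was 1.01 without it. Within block 1 the ratio was -0.02 and within block 2 it was 0.70.

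Alox5 (ENSMUSG00000025701, chromosome 6, 116410077 to 116461178, minus strand) encodes 5-lipoxygenase, which makes leukotriene A4. It was the member found in most cells of both groups. In mature mast cells its level ran from 1.81 CPM through a median of 1597 CPM to 4640 CPM, and in BMCPs from 2.45 CPM through a median of 2402 CPM to 9423 CPM. The ranges overlap over most of their length, with the highest cells among the BMCPs. It was held by 91 of 94 mature mast cells (96.8%, 90.96 to 99.3) and 88 of 93 BMCPs (94.6%, 87.9 to 98.2). The pooled levels were 1641 CPM (1634 to 1648) and 2717 CPM (2707 to 2726), which puts BMCPs at 1.66 times the other level. On the log2 scale this was -0.73 (-0.57 in block 1 and -0.88 in block 2), it turned to 0.19 with ERCC scaling (-0.03 without BMCP 55), and relative to the median of all genes it was -0.48 by gene reads and -0.49 by ERCC reads.

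The cells with little Alox5 differed in their other mast cell RNA. Of the 5 BMCPs under 100 CPM, numbers 46 and 80 were the wells with B cell markers, which had 5 and 9 Alox5 reads. The other 3 (numbers 16, 52 and 55) and the 3 mature mast cells (numbers 48, 63 and 93) had Cpa3, the mast cell carboxypeptidase, at 11033 CPM or more. Both Fcer1a and Hdc were near 0 in 2 of these. BMCP 55 had Kit at 1.06, Fcer1a at 7.44 and Hdc at 4.25 CPM. BMCP 52 had Fcer1a at 4.80 and Hdc at 2.40 CPM beside Kit at 747 CPM. The other 4 cells had Kit at 184 CPM or more and Fcer1a at 1820 CPM or more. Among those 4, mature mast cell 93 had little Hdc, at 14.5 CPM against a group median of 1505 CPM. Mature mast cell 93 had 3 Alox5 reads among 1653500 gene reads beside 96690 CPM of Cpa3 and 145 CPM of Hpgds. It also had the most Mcpt8 of its group, at 787 CPM. BMCP 52 had 5 Alox5 reads among 1665581 beside 49842 CPM of Cpa3 and 1523 CPM of Hpgds. Without the 2 wells with B cell markers, 88 of 91 BMCPs held Alox5 (96.7%, 90.7 to 99.3) and the pooled level was 2784 CPM.

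Alox5ap (ENSMUSG00000060063, chromosome 5, 149264767 to 149288153, plus strand) encodes the 5-lipoxygenase activating protein, FLAP, which presents arachidonic acid to the enzyme. It reached 100 CPM in a minority of cells in both groups. Its level ran from 0 through a median of 0.978 CPM to 369 CPM in mature mast cells, and from 0 through 1.04 CPM to 1040 CPM in BMCPs. The medians were thus about the same and the groups differed in their highest cells. Counts at 100 CPM were 26 of 94 (27.7%, 18.9 to 37.8) and 35 of 93 (37.6%, 27.8 to 48.3), but at 10 CPM they were 42 and 40, and with 1 read after thinning to 100000 reads 44 and 42, so the order of the shares turned with the threshold. Pooled levels were 63.8 CPM (62.4 to 65.3) and 124.8 CPM (122.8 to 126.8), a log2 ratio of -0.96 that stayed negative but was only -0.05 with ERCC scaling. Within blocks it was -0.78 and -1.15, so the 2-fold line was passed in block 2 alone. Among cells that held it, the median level was 207 CPM for the mature type and 234 CPM for BMCPs. In the annotation 13.3% of the exon bases of Alox5ap are shared with Gm19719 on the opposite strand, which had 0 reads. The strand setting of the counts is not given, so the level of Alox5ap is uncertain to that extent.

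Ltc4s (ENSMUSG00000020377, chromosome 11, 50236461 to 50238616, minus strand) encodes leukotriene C4 synthase, which joins leukotriene A4 to glutathione. Its highest mature mast cell stood at 200.1 CPM and its highest BMCP at 91.4 CPM, and the median was 0 in both groups. Only mature mast cells 76, 84 and 86 reached 100 CPM (3 of 94, 3.19%, 0.663 to 9.04). In BMCPs 0 of 93 did, which allows a share of up to 3.23%. These counts rest on the threshold, since 23 mature mast cells (24.5%) and 12 BMCPs (12.9%) reached 10 CPM, and 12 and 5 had 50 reads. The pooled levels were 15.5 CPM (14.8 to 16.2) and 5.57 CPM (5.16 to 6.01), a log2 ratio of 1.33. Within blocks it was 0.62 and 1.67, below 2-fold in block 1, and all 3 cells at 100 CPM were in block 2. In the annotation 26.4% of the exon bases of Ltc4s are shared with Gm26542 on the opposite strand, a gene with 170 reads over all cells, and whether counting used the strand is not given in the sources used here, so its level is uncertain to that extent.

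Lta4h (ENSMUSG00000015889, chromosome 10, 93453411 to 93484875, plus strand) encodes leukotriene A4 hydrolase, which makes leukotriene B4. It ran from 0 through a median of 0.711 CPM to 950 CPM in mature mast cells, and from 0 through 1.20 CPM to 1123 CPM in BMCPs. The highest BMCP was number 80, and number 46 stood at 402 CPM: the wells with B cell markers held this RNA while they lacked the other 9 members at 100 CPM. It was held by 28 of 94 mature mast cells (29.8%, 20.8 to 40.1) and 31 of 93 BMCPs (33.3%, 23.9 to 43.9), or 29 of 91 without those wells. Pooled levels were 94.7 CPM (93.01 to 96.5) and 131.7 CPM (129.7 to 133.8), and 119.7 CPM without the 2 wells. The log2 ratio was -0.47, -0.33 without the wells, and turned to 0.43 with ERCC scaling. The blocks gave -1.07 and -0.07, so the groups lay apart in block 1 and side by side in block 2.

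Ptgs1 (ENSMUSG00000047250, chromosome 2, 36230426 to 36252272, plus strand) encodes cyclooxygenase 1, the constitutive enzyme that makes prostaglandin H2. It was found in more mature mast cells than BMCPs. The median was 0 in both, with the highest mature mast cell at 754 CPM and the highest BMCP at 1274 CPM. It was held by 22 of 94 mature mast cells (23.4%, 15.3 to 33.3) and 5 of 93 BMCPs (5.38%, 1.77 to 12.1), and these intervals do not overlap. In block 1 the counts were 10 of 47 and 2 of 47, and in block 2 they were 12 of 47 and 3 of 46. After each cell was thinned to 100000 reads, 24 of 94 (25.5%, 17.1 to 35.6) and 9 of 93 cells (9.68%, 4.52 to 17.6) had a read. Those intervals overlap, so their separation held at 100 CPM but not for a read after thinning. The pooled levels were 82.3 CPM (80.7 to 83.9) and 36.7 CPM (35.6 to 37.8), a log2 ratio of 1.14, or 1.39 above the median of all genes. BMCP 72 held 40.2% of the BMCP reads, and without it the ratio was 1.84. Within block 1 the ratio was 1.92, and within block 2, which holds BMCP 72, it was 0.62 and below 2-fold.

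Ptgs2 (ENSMUSG00000032487, chromosome 1, 150100031 to 150108227, plus strand) encodes cyclooxygenase 2, the form induced on activation. Not a read fell on it in any of the 187 cells, so its count was 0 in both groups. With 118831096 and 119524686 summed gene reads, a count of 0 allows a pooled level of up to 0.0252 CPM and 0.0251 CPM, far below the 3.39 CPM of Gzmb in mature mast cells. It lies 138740 bases from Pla2g4a, with no other member between them.

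Hpgds (ENSMUSG00000029919, chromosome 6, 65117293 to 65144908, minus strand) encodes hematopoietic prostaglandin D synthase. It was held by most cells of both groups, at more even levels in mature mast cells. Their levels ran from 0 through a median of 413 CPM to 1704 CPM, with quartiles at 240.2 and 753 CPM. In BMCPs they ran from 0 through 342 CPM to 3666 CPM, with quartiles at 50.2 and 929 CPM. BMCPs thus had both more cells with little Hpgds and the cells with most. The RNA was held by 81 of 94 mature mast cells (86.2%, 77.5 to 92.4) and 64 of 93 BMCPs (68.8%, 58.4 to 78.02), or 64 of 91 without the wells with B cell markers (70.3%, 59.8 to 79.5). Pooled levels went the other way, at 497 CPM (493 to 501) and 614 CPM (610.0 to 619). The same order held within block 1 (486 and 605 CPM) and block 2 (507 and 624 CPM). The log2 ratio was -0.30 from pooled reads, 0.27 from the medians of the cells and 0.61 with ERCC scaling, so no direction held across these measures. Relative to the median of all genes it was -0.05.

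Ptger3 (ENSMUSG00000040016, chromosome 3, 157566892 to 157645888, plus strand) encodes EP3, a prostaglandin E2 receptor known to enhance mast cell activation. Its highest mature mast cell stood at 483 CPM and its highest BMCP at 1087 CPM, and the median was 0 in both. In all, 23 of 94 mature mast cells (24.5%, 16.2 to 34.4) and 17 of 93 BMCPs (18.3%, 11.02 to 27.6) held it. Pooled levels were 75.9 CPM (74.4 to 77.5) and 80.97 CPM (79.4 to 82.6), a log2 ratio of -0.09 that was 0.07 in block 1, 0.15 with TMM scaling and 0.81 with ERCC scaling. The groups overlapped, and the sign depended on the scaling.

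Ptger4 (ENSMUSG00000039942, chromosome 15, 5206661 to 5244187, minus strand) encodes EP4, a prostaglandin E2 receptor coupled to cyclic AMP. It was nearly absent from the reads. Only mature mast cells 59 and 79, at 109 and 320 CPM, and BMCP 94, at 809 CPM, reached 100 CPM. Mature mast cell 79 held 67.7% of the reads of its group, and BMCP 94 held 99.6% of the reads of the other. The pooled levels of 5.31 and 5.74 CPM (log2 ratio -0.09, 0.11 with TMM and 0.68 with ERCC scaling) therefore rest on 1 cell each. Within blocks the ratio was 1.12 and -0.32. It was 2.62 without BMCP 94 and -1.30 without mature mast cell 79. Its exons share 16.5% of their bases with Ttc33 and Gm15937 on the opposite strand, so its few reads are also uncertain.

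**Figure D2:**
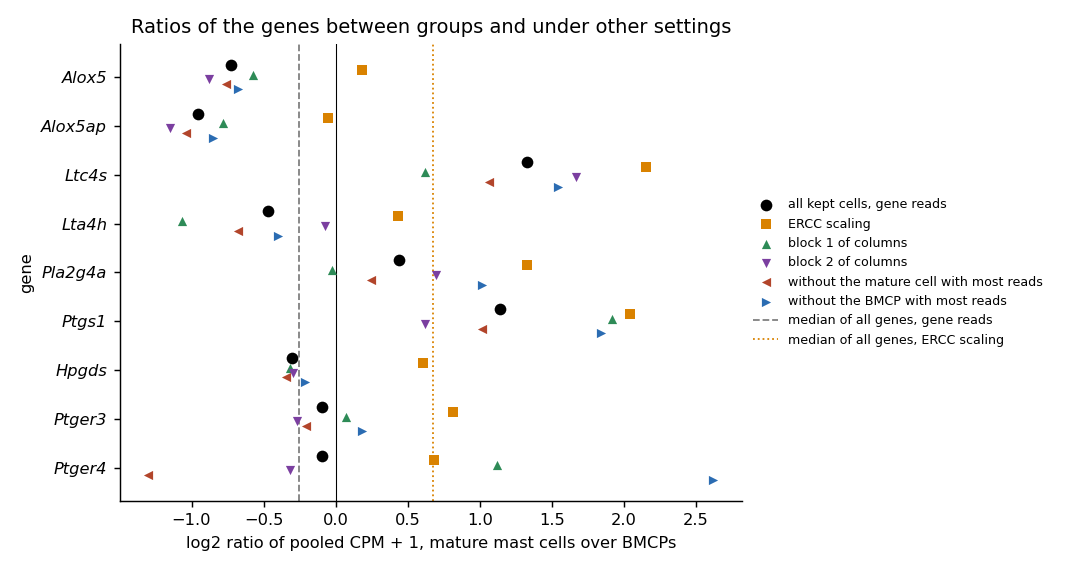
Log2 ratio of pooled CPM + 1, mature mast cells over BMCPs (horizontal axis), for the 9 genes with reads (vertical axis), by gene reads, by ERCC reads, within each block of columns and without the cell that holds most reads of the gene in each group. The dashed line is the median of all genes by gene reads, at -0.25, and the dotted line that by ERCC reads, at 0.67. By gene reads Ltc4s and Ptgs1 lie right of the dashed line, and Ptger4 swings from -1.30 to 2.62 with 1 cell left out.

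Levels of different genes were compared per kilobase of annotated exon. In both groups the order began with Alox5, at 399.7 CPM per kilobase in mature mast cells and 662 in BMCPs, then Hpgds (77.4 and 95.6) and Alox5ap (44.9 and 87.9). In mature mast cells Ptgs1 (21.2), Lta4h (15.5), Ltc4s (15.3), Ptger3 (13.4), Pla2g4a (7.23) and Ptger4 (0.799) followed. In BMCPs the order was Lta4h (21.6), Ptger3 (14.2), Ptgs1 (9.45), Ltc4s (5.50), Pla2g4a (5.30) and Ptger4 (0.863). Lta4h and Ltc4s in mature mast cells, and Ltc4s and Pla2g4a in BMCPs, did not differ beyond counting error by this length. The order of the lower genes depends on the length used. By the longest transcript, Lta4h (29.4) came before Ptgs1 (28.7) and stood apart from Ltc4s (21.7) in mature mast cells. Pla2g4a (9.81) came before Ltc4s (7.78) in BMCPs. The intervals of the last 2 pairs did not overlap, but they are too narrow because PCR copies were counted. BMCP 95 alone held 34.9% of the BMCP reads of Pla2g4a. The first place of Alox5 and the second of Hpgds held by either length in both groups.

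The next question was whether enzymes of 1 route lay in the same cell. For leukotriene C4 this set is Alox5, Alox5ap and Ltc4s. No cell of either group held all 3 at 100 CPM: 0 of 94 mature mast cells, which allows a share of up to 3.19%, and 0 of 93 BMCPs, which allows up to 3.23%. The count of cells with Ltc4s fixed this in BMCPs, where it was 0, and left only 3 mature mast cells that could hold the set. The 3 mature mast cells with Ltc4s had Alox5 at 682 to 2005 CPM but Alox5ap at 0, 5.84 and 19.5 CPM. This count depends on the threshold: at 10 CPM the set lay in 13.8% of mature mast cells and 7.53% of BMCPs.

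For leukotriene B4, with Lta4h in place of Ltc4s, the set lay in 8 of 94 mature mast cells (8.51%, 3.75 to 16.1) and 12 of 93 BMCPs (12.9%, 6.85 to 21.5). For prostaglandin D2, Ptgs1 with Hpgds lay in 18 of 94 mature mast cells (19.1%, 11.8 to 28.6) and 4 of 93 BMCPs (4.30%, 1.18 to 10.6). That gap follows the count of cells with Ptgs1, since Hpgds was present in 18 of the 22 mature mast cells and 4 of the 5 BMCPs with Ptgs1. By block the prostaglandin D2 set lay in 8 of 47 and 10 of 47 mature mast cells, and in 2 of 47 and 2 of 46 BMCPs. Both the leukotriene B4 and the prostaglandin D2 set lay in 3 mature mast cells and in 0 BMCPs.

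Most cells held only a few of the 10 RNAs. Mature mast cells held 1 to 6 of them and BMCPs 1 to 5, with a median of 3 in both. Alox5ap was held by 26 of the 91 mature mast cells with Alox5 and 34 of the 88 BMCPs with Alox5. Alox5ap and Lta4h lay together in 8 of 94 mature mast cells and 12 of 93 BMCPs, so 30.8% and 34.3% of the cells with Alox5ap held Lta4h, against 29.8% and 33.3% of all cells. Ptger3 and Alox5ap lay together in 2 mature mast cells, 8.70% of those with Ptger3 against 27.7% of all, whereas in BMCPs the shares were 35.3% and 37.6%. This pair was picked after its values were seen. The number of members per cell went with the number of genes read in the cell (Spearman rho 0.25 over 94 mature mast cells and 0.37 over 93 BMCPs, cells of 1 pool each that share library depth), and the part of that in the counts was not tested.

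**Figure D3:**
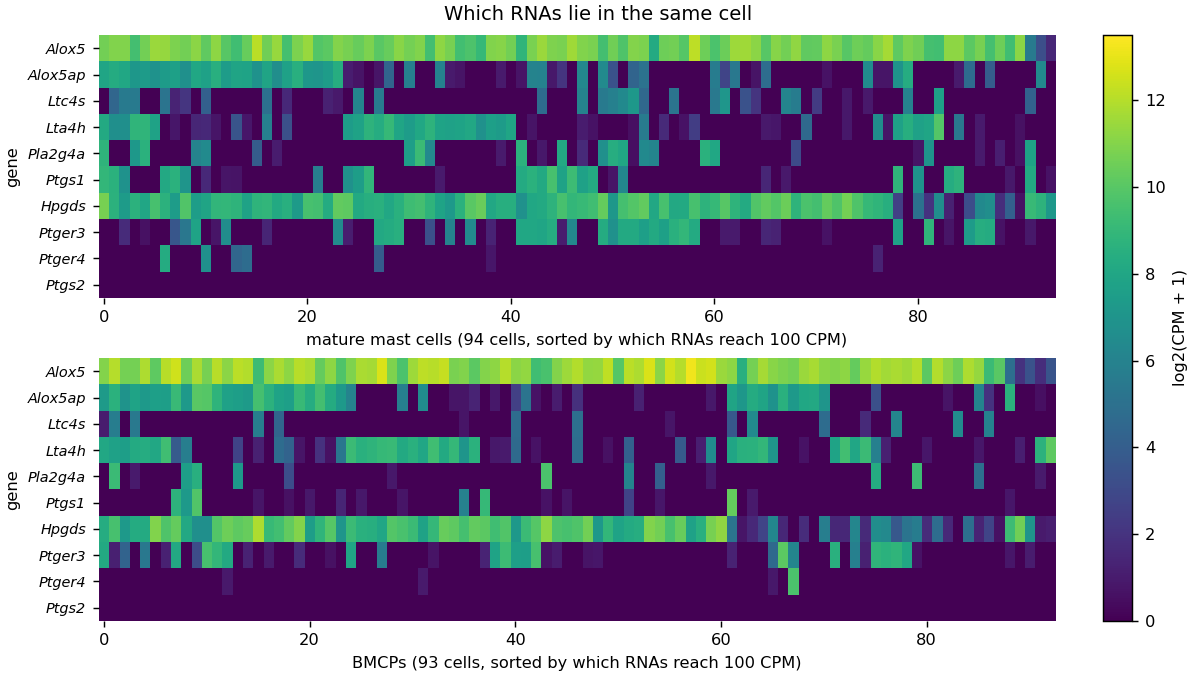
Level of each gene (rows) in every cell (columns) as log2(CPM + 1), for 94 mature mast cells above and 93 BMCPs below, with cells sorted by which RNAs reach 100 CPM. Alox5 and Hpgds run across most columns in both panels, Alox5ap, Lta4h, Ptgs1 and Ptger3 appear in separate and partly overlapping sets of cells, and Ptgs2 is at 0 throughout.

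BMCPs fall into cells with and without Gzmb, the granzyme B gene, and the members were described on both sides. At 100 CPM, 60 BMCPs held Gzmb and 33 did not. No BMCP lay between 50 and 200 CPM, the nearest cells being at 27.9 and 543 CPM, and the wells with B cell markers were among the 33. These are levels of 1 gene in 1 pool, not groups of the study, and no test was made.

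The median Alox5 level was 3093 CPM in the 60 BMCPs with Gzmb and 2069 CPM in the 33 without, against 1597 CPM in mature mast cells. Without the 2 wells with B cell markers the 31 remaining cells had a median of 2074 CPM and all held the RNA. The median of Hpgds was 502 CPM with Gzmb and 179 CPM without (279 CPM in the 31 cells), and it was held by 44 of 60 and 20 of 33. Pla2g4a was held by 6 of 60 cells with Gzmb and 1 of 33 without, at pooled levels of 50.02 and 5.35 CPM, with 36.98% of the reads on the Gzmb side in BMCP 95 and 98.7% of those on the other side in BMCP 62. So by gene reads the phospholipase, 5-lipoxygenase and prostaglandin D synthase had their higher pooled levels in the cells with Gzmb. That order held with the division at 10 or 1000 CPM of Gzmb. At 1000 CPM the levels lay closer for Pla2g4a (45.1 and 15.6 CPM) and for Hpgds (663 and 536 CPM, against 720 and 428 CPM at 100 CPM). The median cell had 497 gene reads per ERCC read with Gzmb and 731 without. This division was not scaled to ERCC reads, so the order by that scale was not tested.

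Other members lay the other way or alike, apart from Ptger4, whose level rested on 1 cell. Lta4h was held by 15 of 60 cells with Gzmb (25%, 14.7 to 37.9) and 16 of 33 without (48.5%, 30.8 to 66.5), or 14 of 31 without the wells with B cell markers (45.2%, 27.3 to 63.97). Alox5ap was held by 19 of 60 (31.7%, 20.3 to 44.96) and 16 of 33 (48.5%, 30.8 to 66.5), although its pooled levels were 129.5 and 116.5 CPM, an order that turned with the division at 1000 CPM (114.9 and 140.8 CPM). Ptgs1 was held by 2 of 60 and 3 of 33, Ptger3 by 8 of 60 and 9 of 33, and Ptger4 by 1 of 60 and 0 of 33. The pooled levels of Ptger4 were 8.96 CPM with Gzmb and 0.0463 CPM without, with 99.9% of the reads on the Gzmb side in BMCP 94. Ltc4s had 3.59 CPM with Gzmb and 9.07 CPM without, and no cell on either side held it at 100 CPM. The intervals of all these shares overlap. The leukotriene B4 set lay in 5 of 60 and 7 of 33 cells, and the prostaglandin D2 set in 2 of 60 and 2 of 33.

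**Figure D4:**
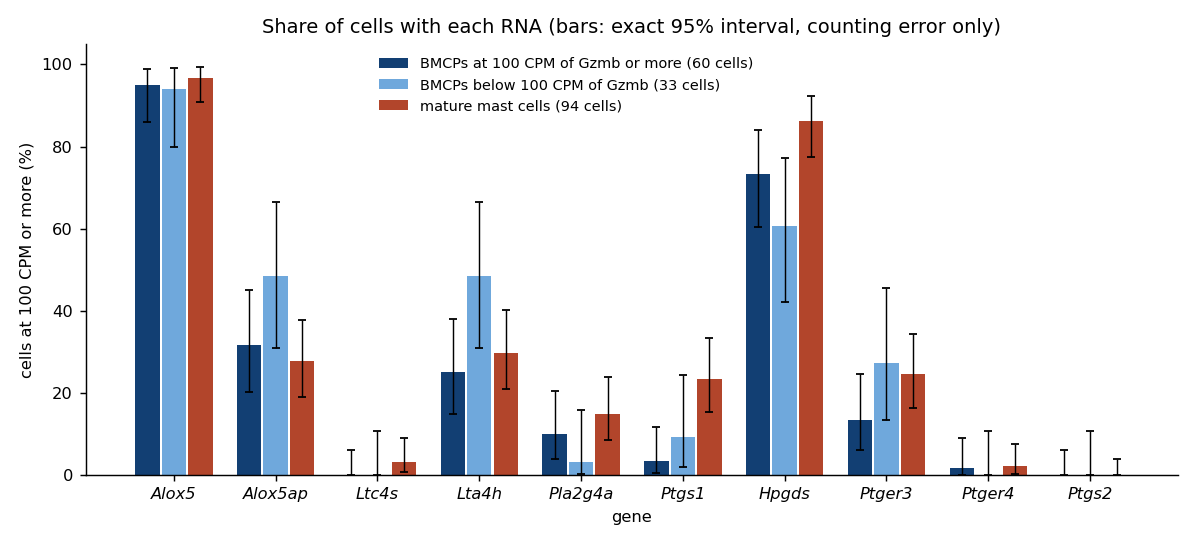
Percent of cells at 100 CPM or more of each gene (vertical axis, from 0) in BMCPs with Gzmb (dark blue, 60 cells), BMCPs without Gzmb (light blue, 33 cells) and mature mast cells (red, 94 cells), with exact 95% intervals as error bars. Alox5 is near the top in all 3, Ptgs1 is at 23.4% in mature mast cells against 3.33% and 9.09% in the BMCPs, and Alox5ap and Lta4h are both at 48.5% in BMCPs without Gzmb.

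Alox5 and Hpgds were the only members with enough signal per cell to compare with other genes. Their levels were nearly unrelated to each other, with Spearman's rho of 0.03 over 94 mature mast cells and 0.20 over 93 BMCPs. In mature mast cells the genes closest to Alox5 among 2132 compared were Scp2 (rho 0.32), Eef1a1 (0.30) and Matr3 (0.29), and those closest to Hpgds were Nfe2l2 (0.33), Lgals9 (0.30) and Lgals3bp (0.30). In BMCPs, among 1771 genes, Gnaz (0.44), Ptprcap (0.43) and Nkg7 (0.41) were closest to Alox5, and Gnai3 (0.40), Vim (0.35) and Rraga (0.35) to Hpgds. All of these are weak, come from cells that share a library pool and are the highest of many, so they describe an order and no more.

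The other genes of the pathway were taken from a list of 62 that covers phospholipases, lipoxygenases, synthases, transport, breakdown, receptors and the platelet-activating factor branch. Of these, 31 reached 5 CPM in either group, and 4 were at least 2-fold higher in mature mast cells and 9 at least 2-fold higher in BMCPs. Over all genes tested these shares were 9.90% and 19.2%. The list's median log2 ratio was -0.61, against -0.25 for all genes. With ERCC scaling the counts were 11 and 4, but the median of all genes also moved, to 0.67. The shares of all genes past 2-fold were not computed with that scaling. In the list 14 genes had 0 reads in every cell, and Ptges, Ptgds, Alox15, Cysltr1 and Cysltr2, named here after their values were seen, were among them. So the inducible prostaglandin E synthase, the other prostaglandin D synthase and both cysteinyl leukotriene receptors were not detected at this depth.

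Of the 4 genes higher in mature mast cells, Pla2g7 and Hpgd inactivate lipid mediators. Pla2g7, the acetylhydrolase that inactivates platelet-activating factor, had by far the highest level of the list. Its level ran from 232 through a median of 1753 to 4979 CPM in mature mast cells and from 0 through 130 to 3937 CPM in BMCPs, and it was held by 94 of 94 and 48 of 93 cells (log2 ratio 1.41, and 1.73 and 1.15 within the blocks). Among BMCPs it was held by 20 of 60 with Gzmb and 28 of 33 without, with medians of 3.64 and 1703 CPM, so the cells without Gzmb had a median close to that of mature mast cells. Hpgd, which inactivates prostaglandins, was held by 16 of 94 mature mast cells, 0 of 60 BMCPs with Gzmb and 4 of 33 without, and its ratio of 2.05 was the highest of the list. That ratio came from block 2, where it was 3.14, while in block 1 it was 0.27 and below 2-fold. Mgst3, a microsomal glutathione transferase related to leukotriene C4 synthase, had 32.6 and 15.2 CPM, and Ptgir, the prostacyclin receptor, had 16.2 and 6.58 CPM. Both were past 2-fold in block 1 (1.89 and 2.36) and below it in block 2 (0.49 and 0.92), and both fell below it without the mature mast cell with most reads (0.93 and 0.44).

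The widest difference of the list in favour of BMCPs was in Ltb4r1, the high-affinity leukotriene B4 receptor. It was held by 20 of 93 BMCPs, with a highest cell at 3796 CPM, and by 0 of 94 mature mast cells, which allows up to 3.19%. The pooled levels were 163.9 CPM and 0.177 CPM, the latter made of 21 reads (log2 ratio -7.13, and -6.71 and -7.43 within the blocks). Of the 20 BMCPs, 19 were among the 60 with Gzmb. Tbxas1, thromboxane synthase, was held by 12 BMCPs, all with Gzmb, and by 3 mature mast cells (59.7 and 9.06 CPM, log2 ratio -2.59, and -2.53 and -2.59 within the blocks). Lpcat2, which makes platelet-activating factor, was held by 32 of 60 BMCPs with Gzmb, 9 of 33 without and 29 of 94 mature mast cells. Its log2 ratio was -1.62 (-1.85 and -1.40 within the blocks), and -0.71 and below 2-fold with ERCC scaling.

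The other 6 genes past 2-fold in BMCPs rested on few cells. Abcc1, the exporter of leukotriene C4, was held by 6 BMCPs and 2 mature mast cells (log2 ratio -3.18, and -2.43 and -4.62 within the blocks). Mgst1, a microsomal glutathione transferase (-2.88), was held by 3 BMCPs, all in block 2. Cyp4f18, an oxidase of leukotriene B4 (-2.29), was held by 2, of which the one with most reads was number 46, a well with B cell markers. Without those wells its ratio was -0.57 and no longer past 2-fold, and in block 2 it was -0.02. Ggt5, which trims leukotriene C4, was held by 1 BMCP (-1.95, -0.11 in block 2, and 0.87 without that cell), and Ptgr1, a reductase that inactivates leukotriene B4 and prostaglandins, by 2 (-1.42, and 0.30 in block 2). Ptger1, the receptor EP1, is the last of the 6, and its reads are uncertain, so its level is not described here. Of the 18 genes within 2-fold, Cotl1, a partner protein of 5-lipoxygenase, was held by 79 of 94 mature mast cells and 79 of 93 BMCPs.

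**Figure D5:**
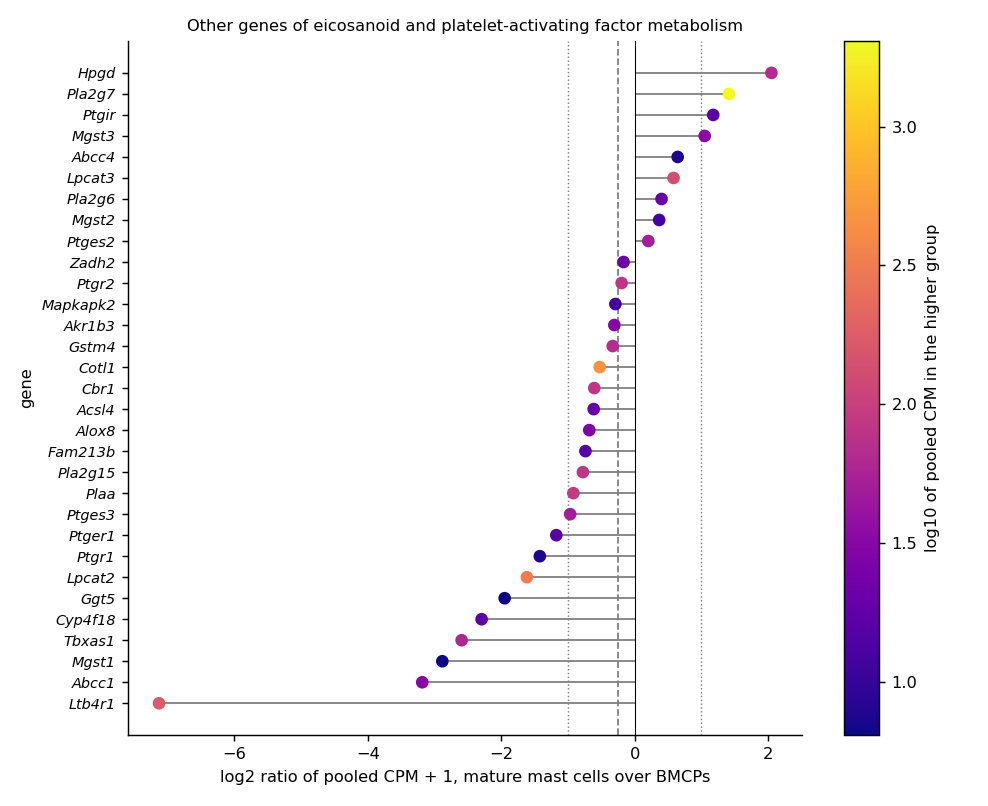
Log2 ratio of pooled CPM + 1, mature mast cells over BMCPs (horizontal axis), for the 31 other pathway genes that reached 5 CPM in a group, sorted by ratio, with colour for the log10 of the pooled CPM in the higher group. Dotted lines mark 2-fold and the dashed line the median of all genes at -0.25; Ltb4r1 stands apart at -7.13 and Pla2g7, at 1.41, has the highest level.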

How the data were processed

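RNA of single cells was made into cDNA from oligo-dT with 23 PCR cycles and ERCC RNA, without molecular identifiers, and sequenced as 50 bp single-end reads, per the labels' protocols. The authors deposited raw read counts per gene, a whole number for each cell, aligned with GSNAP 2015-09-29 to mm10 and counted with HTSeq 0.5.3p3, per the submitters' processing notes. The annotation release and the strand setting are not given in the sources used here. Rows that name no gene were left out of totals: unaligned reads were 13.1% and 14.9%, and reads outside genes 12.5% and 16.2%, of all table reads of mature mast cells and BMCPs.

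Here, cells with at least 100000 gene reads (187 of 189) were kept, levels were expressed as CPM of gene reads, and groups were pooled by summing counts. No count model was run between groups, since each is 1 sample. TMM factors came from edgeR 4.0.16. Symbols, positions and exon lengths came from GENCODE M21 (GRCm38), which holds 45143 of the 46078 gene rows. Named genes were the 10 members, the pathway list, cell type markers, Gzmb and, for Alox5 and Hpgds, the 3 genes of highest rank correlation per group. The pathway list, markers and members were chosen with earlier results of these data known. The pooled ratios were tested on simulated counts, drawn for every cell of a group from a common profile without spread between cells. Shares of cells, sets and rank correlations were not tested in this way. Alternatives covered scaling, added CPM, minimum level, fold, presence threshold, depth and cells left out. The split by blocks of columns and the length by longest transcript were added after seeing the data.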

Additional observations from a re-analysis of the deposited data

How the results depend on the processing

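With 1 sample per group, depth limits single cells more than pools: at a median of 1255267 and 1247890 gene reads per cell, PCR copies included, absence from a cell was not told apart from a missed RNA. No paired analysis was possible because the replicate numbers only name cells and no test was made. Of the 10 genes, the count at least 2-fold higher in mature mast cells (2 as reported) was 1 with 5 CPM added, within block 1, within block 2 and with a minimum of 20 CPM, and 0 from medians of per-cell CPM and at 4-fold. It was 3 with ERCC scaling, also without BMCP 55. The count higher in BMCPs (0) was 1 within each block (Lta4h in block 1, Alox5ap in block 2) and 2 at 1.5-fold. Among the other pathway genes the count higher in mature mast cells (4) was 11 with ERCC scaling, 8 with ERCC scaling without BMCP 55, 2 with 5 CPM added and 1 from medians and at 4-fold. The count higher in BMCPs (9) was 4 with ERCC scaling and with a minimum of 20 CPM, 1 from medians, 16 at 1.5-fold and 5 at 4-fold. It was 6 with 5 CPM added and with ERCC scaling without BMCP 55, and 12 from means of per-cell CPM. The shares of all genes past the fold were not computed under these alternatives, so these counts have no background beside them. The ratio of Ptgr1 was 0.30 within block 2, and that of Ggt5 was 0.87 without its top BMCP, both opposite to the reported sign. The leukotriene C4 set lay in 13.8% of mature mast cells at 10 CPM, 4.26% at 50 reads and 15.96% with 1 read after thinning, and in 7.53% of BMCPs at 10 CPM and after thinning. The leukotriene B4 set lay in 18.1% of mature mast cells after thinning, and in 21.5% of BMCPs at 10 CPM and 24.7% after thinning. The prostaglandin D2 set lay in 17.02% to 23.4% of mature mast cells under the alternatives run, and in 4.26% to 6.45% of BMCPs, except that it lay in 9.68% of BMCPs after thinning.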
